A study of Mus musculus with 36 samples.

Results

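The insulin-like growth factor (IGF) transcripts described here were 10 of the 51912 genes in the count tables of TA and soleus muscle from WT and ∆Ig3-MuSK mice. They were chosen by gene symbol as the ligands Igf1 and Igf2, the receptors Igf1r and Igf2r, and the binding proteins Igfbp2 to Igfbp7. The rule used symbols and no threshold on a value. The TA (tibialis anterior) is a fast and the soleus a slow muscle of the hindlimb. Muscles of 3-month-old mice gave 9 unstranded RNA-seq libraries for each of 4 groups, the TA and the soleus of WT animals and the same muscles of ∆Ig3-MuSK animals. ∆Ig3-MuSK mice are homozygous for a germline CRISPR-Cas9 deletion of the Musk exons that encode the third immunoglobulin-like domain, the part of this muscle kinase that binds bone morphogenetic proteins, so the allele was present in every cell of the animal, and WT mice carried no edited allele. The members were compared between genotypes within each muscle and between muscles within each genotype, with the question of whether IGF transcripts differed in the ∆Ig3-MuSK soleus in view.

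IGF1 and IGF2 are secreted peptides that bind the receptor tyrosine kinase IGF1R, which signals through insulin receptor substrates to PI3K, Akt and mTOR and so to protein synthesis. IGF2R has no kinase and carries IGF2 to lysosomes for degradation. The binding proteins hold IGFs in the extracellular space and extend or limit their access to the receptor. In muscle, local IGF1 is known as a driver of fiber growth and repair, and both fibers and the cells between them can make it.

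The binding proteins are shown by the stretch of coding sequence that marks the family, because it also shows how they differ. Near its amino end, the classical binding protein has a run of closely spaced cysteines that fold the IGF-binding domain. In the lines below, each read 5′ to 3′ on the coding strand from the mouse transcripts of GRCm38, cysteine codons are in capitals and each stretch holds 36 bases of exon 1.
Igfbp2, chr1:72824772-72824807, plus strand: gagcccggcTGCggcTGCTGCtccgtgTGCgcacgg
Igfbp3, chr11:7213560-7213595, minus strand: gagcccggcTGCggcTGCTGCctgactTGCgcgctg
Igfbp4, chr11:99041644-99041679, plus strand: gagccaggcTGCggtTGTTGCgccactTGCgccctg
Igfbp5, chr1:72873960-72873995, minus strand: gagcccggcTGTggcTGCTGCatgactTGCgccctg
Igfbp7, chr5:77407820-77407855, minus strand: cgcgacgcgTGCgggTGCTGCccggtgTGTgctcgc
The stretches were found by a search of the translated sequence for CGCCxxC (C cysteine, G glycine, x any residue). All 5 therefore hold 4 cysteine codons in the same spacing by construction. In Igfbp7, whose product binds IGFs weakly, the bases before the run differ from those of the other 4 genes. The coding sequence of Igfbp6, whose product prefers IGF2, held 0 matches to this pattern. It held 16 cysteine codons, against 18 to 20 in the other binding protein genes.

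Total counts ranged from 43492062 to 78660422 per library. The labelled muscles were checked against fiber-type markers. The 6 slow-muscle markers summed to 32.8 to 129 CPM (counts relative to library size) in the TA libraries and to 16331 to 24386 CPM in the soleus libraries. Musk itself was lower in mean in ∆Ig3-MuSK, with -0.46 on the log2 scale in the TA (SE 0.12, adjusted p = 0.135, edgeR quasi-likelihood test) and -0.44 in the soleus (SE 0.13, adjusted p = 0.0978), with gene-level counts that include the undeleted exons. One library stood apart. In ∆Ig3-MuSK soleus replicate 8 the tendon cell markers summed to 23.9 CPM, against 216 to 465 CPM in the other 8 libraries of the group, and its fibroblast marker sum of 794 CPM was the lowest of the 36. CPM are given throughout on one scale over the 36 libraries, after TMM factors of 0.811 to 1.19. In bulk RNA, fewer cells of a type and less RNA per cell cannot be told apart.

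Levels of different genes were compared per kilobase of exon. In WT soleus, Igfbp7 was highest at 64.6 ± 8.32 CPM per kb (SD, n = 9). It was followed by Igfbp6 at 36.4 ± 8.21 and Igfbp5 at 32.4 ± 3.25 CPM per kb, whose ranges overlapped. Igf2r (10.8 ± 0.67 CPM per kb) and Igfbp4 (10.6 ± 2.32) also overlapped, above Igfbp3 at 4.85 ± 0.74. The ligands came below the receptor for IGF2 and the main binding proteins. Igf2 stood at 2.50 ± 0.28 CPM per kb and Igf1 at 1.51 ± 0.24, and Igf1 overlapped with Igf1r at 0.99 ± 0.10. Igfbp2 was lowest, at 0.42 ± 0.19 CPM per kb. The TA differed in its order at the top. Igfbp5 led there in both genotypes, at 63.2 ± 16.5 CPM per kb in WT and 57.8 ± 14.1 in ∆Ig3-MuSK, overlapping with Igfbp7 at 55.3 ± 5.73 and 50.8 ± 2.83. In the ∆Ig3-MuSK TA, Igf1r (1.31 ± 0.21 CPM per kb) was placed above Igf1 (1.15 ± 0.31), again with overlapping ranges.

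**Figure D1:**
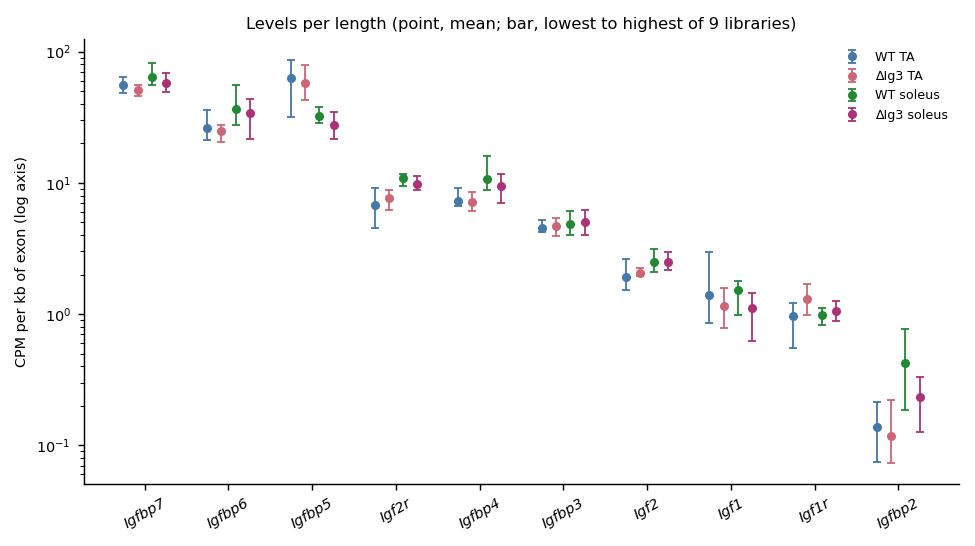
Level of each member in CPM per kb of exon (log axis), ordered by the WT soleus mean. Points are means and bars run from the lowest to the highest of 9 libraries in each group. Igfbp5 has both TA means above both soleus means, and Igfbp2 lies lowest in all 4 groups.

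Genotype was tested within each muscle, with a gene called at a Benjamini-Hochberg adjusted p under 0.05 and at least a 1.2-fold change. By edgeR's quasi-likelihood test none of the 10 members was called in either muscle. The rule called 0.0149% of the 20075 genes tested in the TA and 0.952% of the 19439 genes tested in the soleus. At an unadjusted p under 0.05, 5 of the 10 members passed in the soleus (Igf1, Igf2r, Igfbp2, Igfbp5 and Igfbp7, all lower in mean in ∆Ig3-MuSK) against 18.5% of all genes. In the TA 2 passed (Igf1r, higher in mean, and Igfbp7, lower in mean) against 24.1% of all genes. The median log2 fold change of the members was -0.16 in the soleus and -0.07 in the TA, where that of all genes was -0.0017 and -0.0032.

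**Figure D2:**
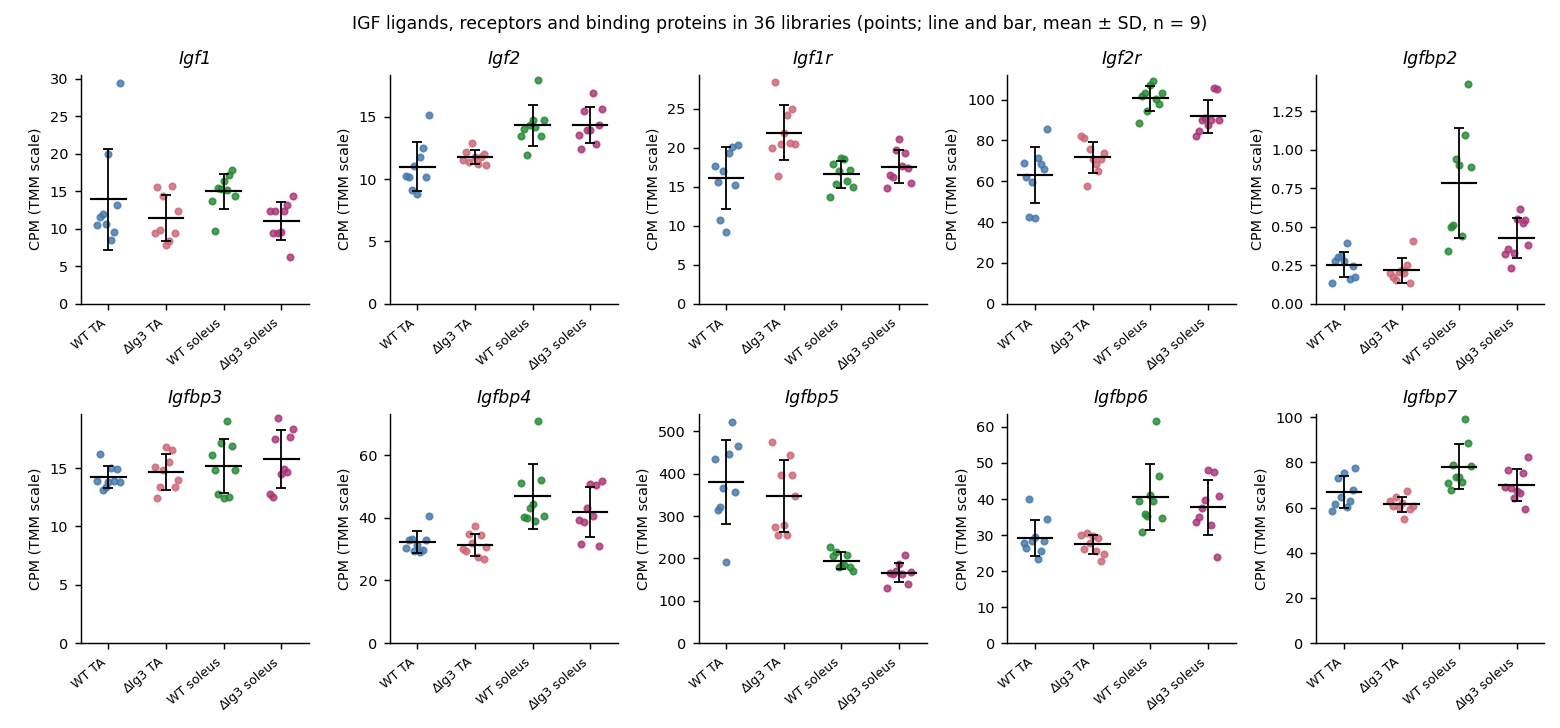
CPM of the 10 members in each of the 36 libraries, with 1 panel per gene, linear axes from 0, and the mean and SD of 9 libraries in black. The genotype means of Igf1, Igfbp2 and Igfbp5 in the soleus and of Igf1r in the TA lie apart, and in each of these panels the genotypes overlap.

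Igf1, the ligand that acts on IGF1R, lies on chromosome 10 (87858265 to 87937042, plus strand, GRCm38). In the WT soleus it was measured at 9.74 to 17.8 CPM with a median of 15.3. In the ∆Ig3-MuSK soleus it was measured at 6.19 to 14.4 CPM with a median of 12.3. All 9 ∆Ig3-MuSK libraries fell below the WT median, and 7 of 9 WT libraries lay above the highest ∆Ig3-MuSK library. WT replicates 1 and 2, at 13.7 and 9.74 CPM, sat within the ∆Ig3-MuSK range. The mean went from 15.0025 ± 2.35 to 11.04 ± 2.53 CPM (SD, n = 9 each), a log2 fold change of -0.45 (SE 0.13, 95% interval -0.73 to -0.17), or 0.731-fold. The adjusted p was 0.0903 by edgeR's quasi-likelihood test, so the difference was not called. DESeq2, the tool the authors used, gave an adjusted p of 0.0323 and limma-voom with sample quality weights one of 0.034, and both called it. Over all alternatives that kept every library the adjusted p ran up to 0.236, in a fit over the 36 libraries. Without WT replicate 2 the gene was called (log2 fold change -0.52, adjusted p = 0.0326), and without ∆Ig3-MuSK replicate 8, which held the lowest value, it was -0.37.

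In the TA, Igf1 spread more widely. WT libraries ranged from 8.45 to 29.4 CPM (median 11.6) and ∆Ig3-MuSK libraries from 7.80 to 15.7 CPM (median 9.87). The WT TA libraries replicate 9, at 29.4 CPM, and replicate 5, at 19.9 CPM, lay above all ∆Ig3-MuSK TA libraries, and the rest of the groups overlapped. The log2 fold change was -0.28 (SE 0.21, 95% interval -0.72 to 0.16, adjusted p = 0.397 by edgeR), and it was -0.07 without WT replicate 9. The single RefSeq promoter listed for Igf1 on GRCm38.p6 is at chr10:87860861-87861160 on the plus strand. It is shown because this ligand gave a soleus difference on which the tools parted. It runs from 250 bases before to 50 bases after the RefSeq start. That start lies inside the gene span given above, which begins upstream at 87858265. Capitals mark a match to CAGCTG, the E-box form that muscle bHLH factors prefer.
Igf1 promoter: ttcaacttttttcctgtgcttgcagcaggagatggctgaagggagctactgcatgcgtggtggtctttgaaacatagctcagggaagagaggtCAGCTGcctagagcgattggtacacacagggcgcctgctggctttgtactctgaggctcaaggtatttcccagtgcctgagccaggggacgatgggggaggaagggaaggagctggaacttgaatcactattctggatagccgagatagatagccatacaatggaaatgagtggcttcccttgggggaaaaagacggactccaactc
The search covered both strands for CAGCTG, for GGGCGG (a GC box) and for TATAAA, with no overlapping matches in the promoters shown. Of 32851 promoters of this length, 16.3% held CAGCTG, the only E-box form searched, 35.7% the GC box and 13.6% the TATA box.

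Igf2, on chromosome 7 (142650766 to 142666816, minus strand), is the fetal growth ligand, expressed from the paternal allele. Its level was nearly the same between genotypes in the soleus. WT soleus libraries ranged from 11.9 to 17.9 CPM (median 14.1) and ∆Ig3-MuSK libraries from 12.4 to 16.9 CPM (median 13.9). The log2 fold change was -0.01, with a 95% interval of -0.16 to 0.14. In the TA it was 0.10 (SE 0.08, adjusted p = 0.46, edgeR), and the WT libraries spread from 8.76 to 15.1 CPM while the ∆Ig3-MuSK libraries lay between 11.2 and 12.9 CPM. Exons of the antisense gene Igf2os overlap those of Igf2 by 98 bases, and reads there cannot be assigned by strand. In the annotation used here, the protein-coding gene Gm49394 shares 3596 of the 5723 exon bases of Igf2 on the same strand. The deposited counts hold no row for Gm49394, so it could not be analysed here. Neither the annotation release behind the counts nor the treatment of reads in the shared bases is given in the sources used here. The Igf2 level is therefore uncertain.

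Igf1r, the signaling receptor, lies on chromosome 7 (67952827 to 68233668, plus strand). In the TA it ranged from 9.19 to 20.3 CPM in WT (median 16.97) and from 16.4 to 28.4 CPM in ∆Ig3-MuSK (median 20.6). Of the ∆Ig3-MuSK libraries 7 of 9 lay above the highest WT library, and 4 of 9 WT libraries lay below the lowest ∆Ig3-MuSK library. The mean went from 16.1 ± 3.95 to 21.9 ± 3.475 CPM, a log2 fold change of 0.44 (SE 0.13, 95% interval 0.16 to 0.72, adjusted p = 0.145, edgeR). limma-voom with quality weights called it at a log2 fold change of 0.37 (adjusted p = 0.0491), and the fit over the 36 libraries called it with an adjusted p of 0.0337. The lowest values were those of WT replicates 5 and 3, at 9.19 and 10.7 CPM, whose libraries also had the lowest TMM factors of the 36 (0.811 and 0.894). Without replicate 5 the difference was 0.36. In the soleus the genotypes were close, at 16.6 ± 1.72 CPM in WT and 17.6 ± 2.09 CPM in ∆Ig3-MuSK, with a log2 fold change of 0.08 (95% interval -0.08 to 0.23, adjusted p = 0.609).

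Igf2r, the clearance receptor for IGF2, lies on chromosome 17 (12682406 to 12769664, minus strand). In the soleus it ranged from 88.7 to 109 CPM in WT (median 102) and from 82.0 to 106 CPM in ∆Ig3-MuSK (median 89.9), and 7 of 9 ∆Ig3-MuSK libraries were below the WT median. The log2 fold change was small, -0.14 (SE 0.05, adjusted p = 0.135, edgeR), and at 0.905-fold it was under the 1.2-fold limit. In the TA the mean difference had the other sign, at 0.19 (SE 0.11, adjusted p = 0.286).

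Among the binding proteins, Igfbp2, whose product binds both IGFs, gave the largest genotype difference in mean. It lies on chromosome 1 (72824503 to 72852474, plus strand) and was read at low depth. The WT soleus libraries held 16 to 71 counts, or 0.345 to 1.42 CPM with a median of 0.891. The ∆Ig3-MuSK soleus libraries held 13 to 31 counts, or 0.234 to 0.617 CPM with a median of 0.383. All 9 ∆Ig3-MuSK libraries fell below the WT median, and 5 of 9 WT libraries lay above the highest of them. WT replicates 1, 2, 3 and 6, at 0.345, 0.496, 0.514 and 0.439 CPM, were among the ∆Ig3-MuSK values. The log2 fold change was -0.89 (SE 0.26, 95% interval -1.43 to -0.35), or 0.539-fold, with an adjusted p of 0.0837 by edgeR. DESeq2 called it with an adjusted p of 0.031 and the fit over the 36 libraries with one of 0.0409. It was also called without WT replicate 1, at -0.99 (adjusted p = 0.0295). Over the other alternatives that kept every library the adjusted p was 0.0523 to 0.113. In the TA, where libraries held 8 to 25 counts, the log2 fold change was -0.23 (95% interval -0.70 to 0.25, adjusted p = 0.53).

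Igfbp5, the binding protein with the highest level per length in the TA, lies beside Igfbp2 on chromosome 1 on the opposite strand (72857932 to 72874884). In the soleus it ranged from 170.6 to 226 CPM in WT (median 184) and from 130.4 to 207 CPM in ∆Ig3-MuSK (median 165). The lowest WT value was above 7 of 9 ∆Ig3-MuSK values. The log2 fold change was -0.24 (SE 0.08, adjusted p = 0.115, edgeR), and the gene was called without ∆Ig3-MuSK replicate 7 (-0.29, adjusted p = 0.0441). In the TA it was -0.13 (SE 0.16, adjusted p = 0.624) within a WT range of 191.9 to 522 CPM.

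Igfbp7 was lower in mean in both muscles. In the soleus it ranged from 67.6 to 99.3 CPM in WT (median 73.6) and from 59.3 to 82.4 CPM in ∆Ig3-MuSK (median 68.7). In the TA the ranges were 58.65 to 77.4 CPM (median 64.6) and 55.1 to 67.3 CPM (median 60.7), and 8 of 9 ∆Ig3-MuSK libraries lay below the WT median there. Its exons share 85 bases with those of Polr2b on the opposite strand. In the soleus its log2 fold change was -0.17 (SE 0.08, adjusted p = 0.231) and in the TA -0.12 (SE 0.06, adjusted p = 0.199), both under 1.2-fold. Of the others, Igfbp3, the main serum carrier of IGFs, had log2 fold changes of 0.05 in the soleus and 0.04 in the TA, with 95% intervals of -0.16 to 0.25 and -0.09 to 0.17. Igfbp4, a target of the protease PAPP-A, gave -0.17 in the soleus (-0.44 to 0.09) and -0.04 in the TA (-0.18 to 0.11). Igfbp6 gave -0.12 in the soleus (-0.39 to 0.16) and -0.10 in the TA (-0.27 to 0.08). None of these 3 passed an unadjusted p of 0.05 in either muscle.

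**Figure D3:**
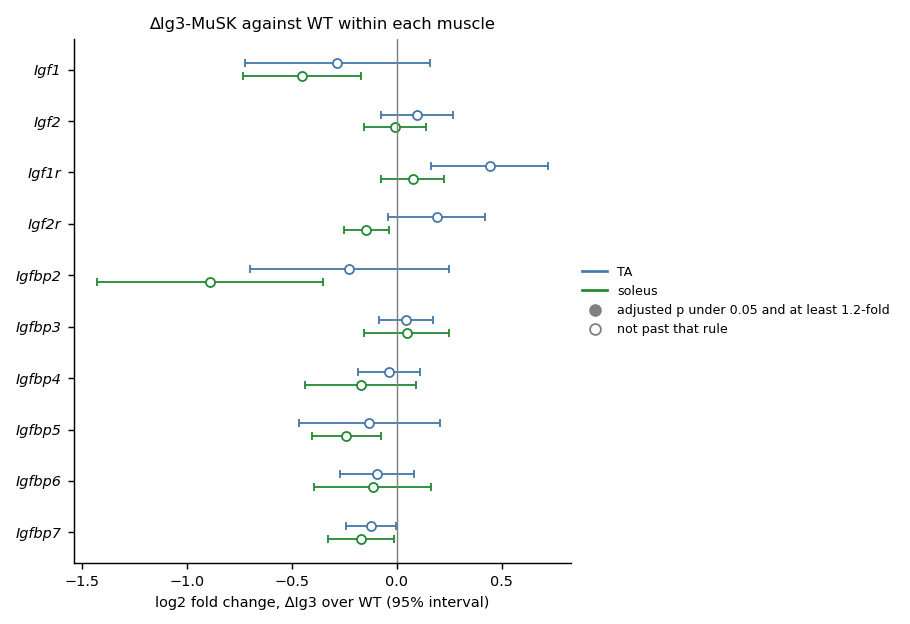
Log2 fold change of ∆Ig3-MuSK over WT for each member in the TA and the soleus, with 95% intervals from edgeR. All 20 points are open, since no member passed the call rule. The intervals of Igf1, Igf2r, Igfbp2, Igfbp5 and Igfbp7 in the soleus, and of Igf1r and Igfbp7 in the TA, do not reach 0.

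Whether a genotype difference was itself different between the muscles was tested as the interaction, the soleus difference minus the TA difference, in the fit over the 36 libraries. By edgeR it called 0 of the 10 members and 0 of 20841 genes (0%), with 2 members (Igf1r and Igf2r) and 24.9% of all genes at an unadjusted p under 0.05. For Igf1 the interaction was -0.16 with a 95% interval of -0.69 to 0.37 (adjusted p = 0.733). It was -0.36 for Igf1r (SE 0.16, adjusted p = 0.162), -0.32 for Igf2r (SE 0.13, adjusted p = 0.125) and -0.65 for Igfbp2 (SE 0.36, adjusted p = 0.247). Alternative fits called 325 genes with DESeq2, 9 with limma-voom and 1 with label numbers as a block, but none of these called a member. The difference in Igf1 between genotypes was therefore not shown to be particular to the soleus.

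Marker lists of other cell types differed in mean between genotypes in the soleus, in both directions and with few calls. The rule called 0.952% of all genes tested there. All 8 fibroblast markers tested were lower in mean in the ∆Ig3-MuSK soleus, with a median log2 fold change of -0.17 and 0 called, and their sum ranged from 1298 to 2478 CPM in WT and from 794 to 1939 CPM in ∆Ig3-MuSK. All 6 tendon cell markers (median -0.58, 0 called) and all 6 immediate early genes (median -0.51, 0 called) were also lower in mean, as were 5 of 6 macrophage markers (median -0.38, 0 called), 5 of 6 endothelial markers (median -0.15, 0 called) and 3 of 5 smooth muscle and pericyte markers (median -0.19), of which Acta2 was called (-0.38, adjusted p = 0.0496, edgeR). Higher in mean were all 4 adipocyte markers (median 0.62, 0 called), all 4 Schwann cell markers (median 0.21, 0 called), all 6 fast muscle markers (median 0.25, 0 called) and 3 of 4 neuron markers tested (median 0.71), of which Syt1 was called (0.84, adjusted p = 0.039). Satellite cell markers (2 of 4 lower) and slow muscle markers (4 of 6 lower) had medians of -0.00023 and -0.06, with 0 called. Mitochondrially encoded genes took 12.5% to 15.7% of the counts in the WT soleus and 13.7% to 16.8% in the ∆Ig3-MuSK soleus. Each marker had counts in each group, but Mkx, a tendon cell marker, fell to 0 counts in the lowest ∆Ig3-MuSK soleus library. Some of these lists went the same way in the TA and some did not, with 0 called in those named next. There all 6 tendon cell markers were lower in mean (median -0.37) and all 4 Schwann cell markers higher (median 0.11). In contrast to the soleus, 3 of 4 adipocyte markers were lower and 4 of 6 endothelial markers higher in the TA. The part of the soleus marker differences in the soleus Igf1 difference was not tested.

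Within a genotype, however, some members followed the fibroblast sum from library to library. Gsn gave the largest part of this sum, with a mean of 715 of 1666 CPM in the WT soleus and 694 of 1360 CPM in the ∆Ig3-MuSK soleus. In the WT TA it gave 688 of 1441 CPM. A sum without Gsn was not tested. Log2 CPM of each member was related to the log2 fibroblast sum and to the mitochondrial percentage in each muscle, as deviations from the genotype mean over 18 libraries, in 40 relations with permutation within genotype. In the soleus, Igfbp6 followed the fibroblast sum with Pearson's r = 0.93 (permutation p = 1e-05, the smallest that 100000 permutations can give, adjusted p = 0.0002) and Spearman's rho = 0.89 (adjusted p = 0.0004), and r was 0.87 without the 2 libraries farthest from the median. For Igfbp4 the values were r = 0.90 (permutation p = 1e-05, adjusted p = 0.0002), rho = 0.86 (adjusted p = 0.0008) and 0.87 without those 2. Igf1 followed it less closely, with r = 0.70 (permutation p = 0.00284, adjusted p = 0.0118), rho = 0.65 (adjusted p = 0.0434) and 0.54 without the 2. In the TA, Igf1 gave r = 0.63 (permutation p = 0.00807, adjusted p = 0.0231), rho = 0.59 (adjusted p = 0.0509) and 0.76 without the 2. By Pearson's r the same 4 members, Igf1, Igfbp4, Igfbp6 and Igfbp7, passed in each muscle. By Spearman's rho, Igf1 in the TA and Igfbp7 in the soleus did not pass. For Igfbp7 in the soleus, r was 0.66 (permutation p = 0.00268, adjusted p = 0.0118), rho was 0.57 (adjusted p = 0.0509), and r was 0.43 without the 2. Against the mitochondrial percentage, 4 of 10 members passed in the TA (Igf2, Igf1r, Igf2r and Igfbp5) and 2 of 10 in the soleus (Igfbp4 and Igfbp6), all with negative r. For neither measure was the share of all genes that would pass computed. These counts therefore describe the 10 members and do not set them apart from other genes. In the TA, Igf2r went against the mitochondrial percentage with r = -0.81 (permutation p = 0.00011, adjusted p = 0.00147) and rho = -0.76 (adjusted p = 0.0062), and -0.75 without the 2 farthest. Igf2 gave r = -0.71 (permutation p = 0.00164, adjusted p = 0.0109), rho = -0.64 (adjusted p = 0.047) and -0.72 without the 2, and Igfbp5 gave r = -0.63 (permutation p = 0.00697, adjusted p = 0.0214), rho = -0.51 (adjusted p = 0.0945) and -0.53 without the 2. For Igf1r in the TA, r was -0.65 (permutation p = 0.0061, adjusted p = 0.0203), rho was -0.59 (adjusted p = 0.0509), and r was -0.77 without the 2. In the soleus, Igfbp6 gave r = -0.73 (permutation p = 0.00071, adjusted p = 0.00568), rho = -0.72 (adjusted p = 0.00904) and -0.72 without the 2, and Igfbp4 gave r = -0.68 (permutation p = 0.00295, adjusted p = 0.0118), rho = -0.57 (adjusted p = 0.0598) and -0.62 without the 2, so that these members were related to both measures. Neither receptor passed in the soleus. Mitochondrial genes took 12.1% to 18.2% of the counts in the WT TA, highest in replicate 5, and 11.5% to 16.8% in the ∆Ig3-MuSK TA. The part of this measure in the Igf1r difference was not tested.

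**Figure D4:**
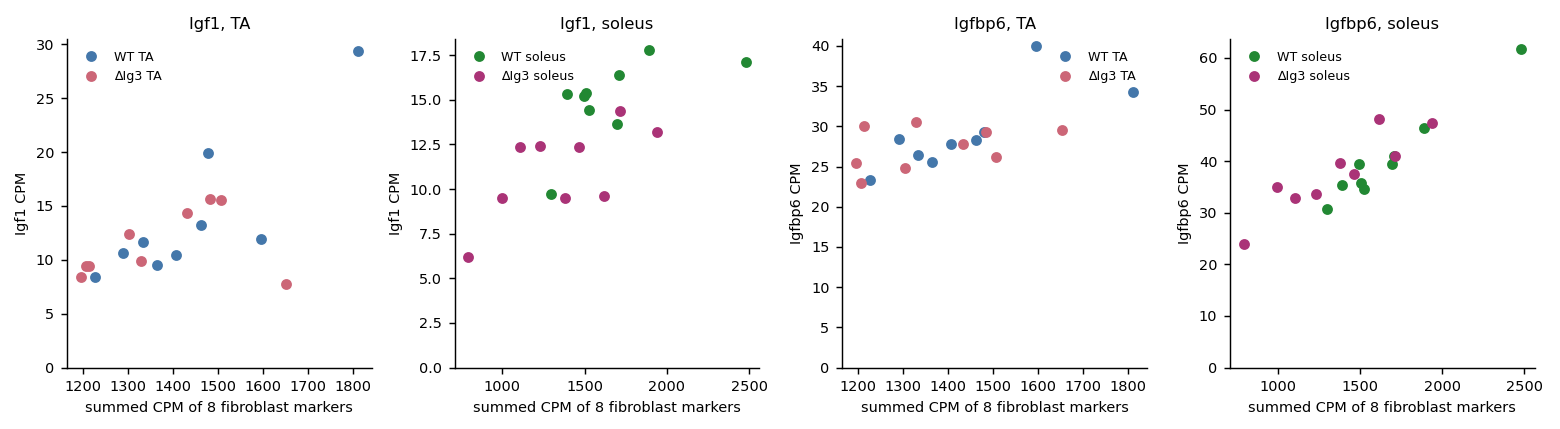
CPM of Igf1 and Igfbp6 against the summed CPM of 8 fibroblast markers in the TA and soleus, with 1 point per library and colors for genotype. In the soleus ∆Ig3-MuSK replicate 8, at a fibroblast sum of 794 CPM, has the lowest Igf1 (6.19 CPM) and Igfbp6 (23.9 CPM), and WT replicate 7, at 2478 CPM, has the highest Igfbp6 (61.7 CPM).

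Between the muscles, in contrast to the genotypes, several members were called by edgeR. Of the 10 members, 6 were called between soleus and TA in WT, where the rule called 57.5% of 20841 genes (30.2% higher and 27.3% lower in the soleus). In ∆Ig3-MuSK 7 were called, where it called 56.1% (28.5% higher and 27.6% lower). These shares lie near those of all genes. Igf2, Igf2r, Igfbp2, Igfbp4 and Igfbp6 were higher in the soleus and Igfbp5 lower, in both genotypes, and Igf1r was lower in ∆Ig3-MuSK. Igf1 was not called, with a log2 fold change of 0.11 in WT (95% interval -0.27 to 0.48) and of -0.05 in ∆Ig3-MuSK (-0.43 to 0.33).

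Igfbp5 and Igfbp2, neighbors on chromosome 1, went opposite ways. Igfbp5 fell from 380 ± 99.4 CPM in the WT TA to 195 ± 19.5 CPM in the WT soleus, a log2 fold change of -0.96 (SE 0.13, adjusted p = 5.83e-08, edgeR), with 8 of 9 TA libraries above all soleus libraries. In ∆Ig3-MuSK the groups did not overlap (254.7 to 475 CPM against 130.4 to 207 CPM), at -1.06 (SE 0.13, adjusted p = 8.17e-09). Igfbp2 rose from 0.255 ± 0.083 to 0.783 ± 0.358 CPM in WT, a log2 fold change of 1.62 (SE 0.24, adjusted p = 2.67e-07) or 3.08-fold, and in ∆Ig3-MuSK from 0.217 ± 0.081 to 0.429 ± 0.131 CPM, a log2 fold change of 0.97 (SE 0.26, adjusted p = 0.00114). RefSeq promoters on GRCm38.p6 are shown for comparison, with the GC boxes GGGCGG in capitals. For Igfbp2, promoter 1 of the 2 listed is shown, from chr1:72824230-72824529 on the plus strand. For Igfbp5 the single one listed is shown, from chr1:72874816-72875115 on the minus strand.
Igfbp2 promoter: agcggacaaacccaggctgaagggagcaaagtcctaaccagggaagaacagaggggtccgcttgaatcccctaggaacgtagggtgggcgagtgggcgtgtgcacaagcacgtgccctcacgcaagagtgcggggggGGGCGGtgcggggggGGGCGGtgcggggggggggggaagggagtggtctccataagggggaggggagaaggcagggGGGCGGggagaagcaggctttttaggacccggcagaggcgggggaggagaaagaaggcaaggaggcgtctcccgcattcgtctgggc
Igfbp5 promoter: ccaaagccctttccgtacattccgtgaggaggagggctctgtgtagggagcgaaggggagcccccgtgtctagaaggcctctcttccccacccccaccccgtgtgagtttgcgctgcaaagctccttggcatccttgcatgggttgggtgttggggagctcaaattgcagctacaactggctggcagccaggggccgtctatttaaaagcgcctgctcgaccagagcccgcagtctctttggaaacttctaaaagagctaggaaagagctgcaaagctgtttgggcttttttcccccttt
The Igfbp2 window shown held 3 GC boxes and a GC content of 67%. Promoter 2 of Igfbp2 (chr1:72825137-72825436, sequence not shown) held 0 GC boxes and a GC content of 57.3%. The Igfbp5 window held 0 GC boxes and a GC content of 56.3%. None of these windows held CAGCTG, the only E-box form searched, or TATAAA.

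Igf2r was 62.9 ± 13.7 CPM in the WT TA and 100.6 ± 6.27 CPM in the WT soleus, and the groups did not overlap. The log2 fold change was 0.68 (SE 0.09, adjusted p = 2.55e-08, edgeR) in WT and 0.35 (SE 0.09, adjusted p = 0.000726) in ∆Ig3-MuSK. Igf2, its ligand, was 1.30-fold higher in the WT soleus, a log2 fold change of 0.38 (SE 0.08, adjusted p = 4.62e-05), and 1.22-fold higher in ∆Ig3-MuSK at 0.28 (SE 0.08, adjusted p = 0.00139). For Igfbp4 the log2 fold change was 0.54 in WT (SE 0.10, adjusted p = 1.76e-05) and 0.41 in ∆Ig3-MuSK, and for Igfbp6 it was 0.47 (SE 0.11, adjusted p = 0.000434) and 0.46. In the libraries, Igfbp4 ranged from 29.2 to 40.6 CPM in the WT TA (median 31.3) and from 39.0 to 70.9 CPM in the WT soleus (median 43.1), so that 6 of 9 soleus libraries lay above all TA libraries. In ∆Ig3-MuSK it ranged from 26.8 to 37.3 CPM in the TA and from 30.9 to 51.7 CPM in the soleus. Igfbp6 ranged from 23.4 to 39.96 CPM in the WT TA (median 28.3) and from 30.7 to 61.7 CPM in the WT soleus (median 39.4). The Igfbp6 groups overlapped in both genotypes, in ∆Ig3-MuSK through soleus replicate 8 at 23.9 CPM, the only soleus library within its TA range of 22.9 to 30.5 CPM. Igfbp3 did not separate the muscles, with 13.1 to 16.2 CPM in the WT TA and 12.4 to 19.1 CPM in the WT soleus (log2 fold change 0.09, adjusted p = 0.328). Igfbp7 was higher with an adjusted p of 0.0032 in WT, but at 1.17-fold it missed the fold limit. Igf1r went from 21.9 ± 3.475 CPM in the ∆Ig3-MuSK TA to 17.6 ± 2.09 CPM in the soleus (log2 fold change -0.32, SE 0.11, adjusted p = 0.012), against 0.04 in WT (adjusted p = 0.781), and the interaction for this gene was not called (adjusted p = 0.162). The comparisons between muscles depend on the scaling. Raw library totals moved the median of all genes by 0.18 on the log2 scale in WT. On that scale 7 members were called higher in WT, Igfbp3 and Igfbp7 among them, and 1 lower, and of all called genes 70.5% were higher against 52.6% with TMM factors. Igf1r was then not called in ∆Ig3-MuSK (-0.27, adjusted p = 0.0821).

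**Figure D5:**
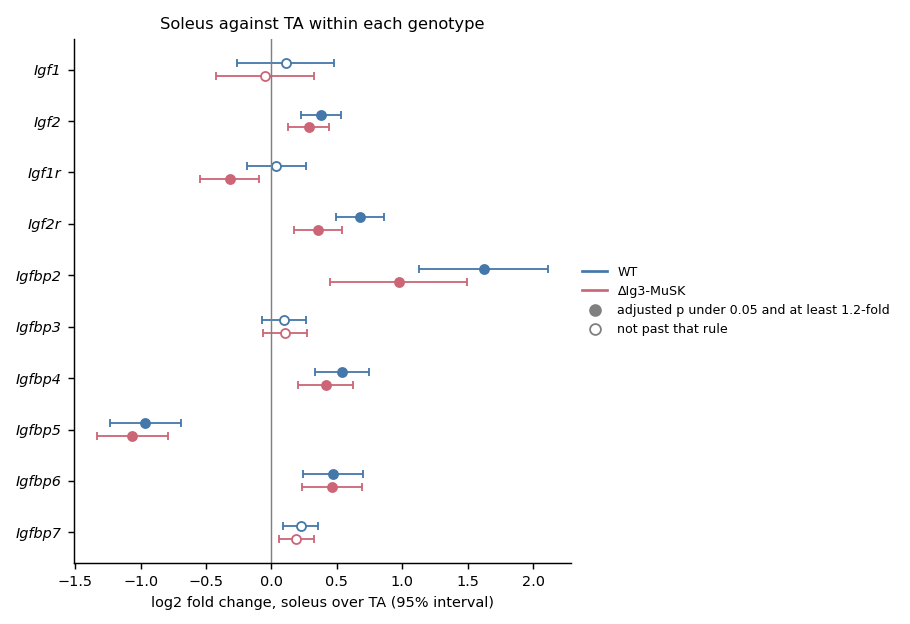
Log2 fold change of soleus over TA for each member in WT and ∆Ig3-MuSK, with 95% intervals from edgeR on the TMM scale. Filled points passed an adjusted p under 0.05 and a 1.2-fold change. Igfbp2 lies farthest to the right (1.62 in WT) and Igfbp5 farthest to the left (-1.06 in ∆Ig3-MuSK). Igf1 is open in both genotypes.

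The wider IGF axis was followed in a list of 27 further genes (other binding proteins, insulin receptors, regulators of Igf2, growth hormone signaling, proteases and adaptors). By edgeR's quasi-likelihood test none was called between genotypes, with 23 tested in the TA and 22 in the soleus, at background shares of 0.0149% and 0.952%. Other fits called some of them, and these genes are named after their values were seen. Igf2bp2, another RNA-binding protein of Igf2 mRNA, ranged from 1.14 to 2.31 CPM in the WT soleus (median 1.65) and from 0.536 to 1.67 CPM in the ∆Ig3-MuSK soleus (median 1.06). Its log2 fold change was -0.69 (SE 0.19) or 0.618-fold, with an adjusted p of 0.0665 by edgeR, and it was called by DESeq2 (adjusted p = 0.0149) and by limma-voom with quality weights (adjusted p = 0.0211). In the soleus, limma-voom also called Grb10 (lower, adjusted p = 0.045), the fit over the 36 libraries called Irs2 (lower, adjusted p = 0.0401) and the fit with the replicate number as a block called Irs1 (lower, adjusted p = 0.0484), the last 2 being insulin receptor substrates. In the TA the fit over the 36 libraries called Insr and Pappa (higher, adjusted p = 0.0442 and 0.0438), and DESeq2 and limma-voom called 0. Between muscles 7 of 22 were called higher and 10 lower in the WT soleus, and 3 higher and 9 lower in ∆Ig3-MuSK. Over all genes the shares were 30.2% higher and 27.3% lower in WT and 28.5% and 27.6% in ∆Ig3-MuSK. The 4 largest differences among the 11 genes called in both genotypes were in 4 classes of gene. H19, the maternally expressed noncoding RNA beside Igf2, had a log2 fold change of 2.54 in WT and 2.48 in ∆Ig3-MuSK. Grb14, an adaptor that restrains the insulin receptor, had 1.42 and 1.53. Igf2bp3, of the same family as Igf2bp2, had -1.40 and -1.32, and Stat5b, which carries the growth hormone signal to Igf1 transcription, had -1.42 and -1.20. Airn, named here after its values were seen because it is transcribed antisense within Igf2r, had -0.74 and -0.77, while Igf2r was higher in the soleus. Its exons did not overlap those of Igf2r (0 bases), and library strand was not kept.

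The genes whose log2 CPM varied most like each member within a muscle were ranked by Pearson's r over 18 libraries, as deviations from genotype means, among 15200 to 15631 genes of at least 1 CPM. These libraries share depth and composition effects, so the values are descriptions. Each leading r was also picked as the highest among all those genes, so it is high by selection. What r such a pick reaches by chance was not computed. Igf1 was most like Rcan1 (r = 0.88, rho = 0.81), Pik3ca and Islr in the TA and Gm11836 (r = 0.87, rho = 0.75), Meis3 and Dapk1 in the soleus. The receptors in the TA gave the closest likeness of all, Igf2r with Mapkbp1 (r = 0.99, rho = 0.95), Hspg2 and Nod1, and Igf1r with Mdc1 (r = 0.96, rho = 0.91), Tep1 and Hjurp. In the soleus Igf1r was most like Akap13 (r = 0.86), Mpp2 and Adnp, and Igf2r most like Emc1 (r = 0.87), Lnx2 and Arap3. Igf2 was most like Frmd4a (r = 0.91, rho = 0.75), Nrp2 and Coro2b in the TA. In the soleus it was most like Cd68 (r = 0.80, rho = 0.62), Tmem123 and Lgi4.

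Among the binding proteins in the soleus, Igfbp6 was most like Scara3 (r = 0.96), Arpc1b and Timp2, and Igfbp4 most like Tmem176b (r = 0.95), Adamts2 and Efhd2. Igfbp7 was most like Ptma (r = 0.90, rho = 0.85), Ppib and Dap, and Igfbp2 like Plod3 (r = 0.81, rho = 0.79), Rftn1 and Etv4. Igfbp5 was most like Hsd17b11 (r = 0.82, rho = 0.60), Hs2st1 and Fbf1, and Igfbp3 like Ddit4 (r = 0.77, rho = 0.74), Tcim and Piga. In the TA, Igfbp4 was most like Plvap (r = 0.89), Pcolce and Serpina3n, Igfbp6 like Arpc1b (r = 0.89), Clec3b and Ctsz, and Igfbp5 like Amigo1 (r = 0.92), Lrrc38 and Rgma. For Igfbp7 the leading genes there were Gm20503 (r = 0.86), Gpx1 and Gm5620, for Igfbp3 they were Med26 (r = 0.80), P4ha2 and Slc35e4, and for Igfbp2 they were Tor2a (r = 0.80), Gm8666 and Gm7774. Arpc1b was the only gene among the leading 3 for the same member, Igfbp6, in both muscles.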

How the data were processed

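RNA-seq was done on 9 TA and 9 soleus libraries of each genotype from 3-month-old mice. The authors trimmed reads with Trimmomatic, aligned them to mm10 with GSNAP, and ran htseq-count for gene-level read counts without strand. The deposited values are these raw whole-number counts per Ensembl gene in 2 tables, and the annotation release is not given in the sources used here. Coordinates, exon lengths and coding sequences came from GENCODE on GRCm38, and promoters from RefSeq tables on GRCm38.p6, which matched all 10 members. Groups came from the labels. Libraries were taken as separate animals within a muscle. In each genotype 8 label numbers occurred in both muscles. They may mark the same animal, although the authors give a single muscle per animal. The main fit over the 36 libraries treated all of them as independent, and label numbers were used as a block in alternatives only.

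Within a muscle, the genotypes were compared by edgeR 4.0.16 in R 4.3.3 (filterByExpr with a minimum count of 10 and a minimum total count of 15, TMM factors, glmQLFit and glmQLFTest without covariates). The interaction and the muscle comparisons used a single fit of 4 group means over 36 libraries. Standard errors are the log2 fold change over the root of F. Adjusted p-values are Benjamini-Hochberg over all genes tested. The alternatives were DESeq2 1.42.0 (at least 0.5 CPM in at least 1 library), limma 3.58.1 voom, RLE factors, raw library totals, no filter, the single fit, replicate or label numbers as blocks, and each library left out. CPM for relations had 0.1 added before logs, and likeness used a prior count of 2. Procedures were tested on simulated data. The genes named were all members, wider-axis genes called by genotype, the 4 wider-axis genes with the largest changes between muscles in both genotypes, and the 3 genes most like each member. The members and gene lists were chosen with earlier results of these data known. Total counts were 43492062 to 78660422 per library, so counting error matters mainly for Igfbp2 (8 to 71 counts). Columns of other samples numbered 0.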

Additional observations from a re-analysis of the deposited data

Results flagged for a closer look

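Dixon's test at the 95% level for groups of 9 libraries was applied to the CPM of the 10 members in the 4 groups, 40 sets of values, of which 4 were flagged. Chance flags about 1 in 20. In the WT soleus, replicate 7 stood above the rest of its group for Igf2 (17.9 CPM, the next at 14.8) and for Igfbp4 (70.9 CPM, the next at 52.0). This library also had the highest fibroblast marker sum of the 36 (2478 CPM) and the highest TMM factor (1.19). Without it the log2 fold change of Igf2 between genotypes in the soleus was 0.041. In the WT TA, replicate 9 stood above the rest for Igfbp4 (40.6 CPM, the next at 33.2), and it held the highest Igf1 of the group (29.4 CPM). In the ∆Ig3-MuSK TA, replicate 9 stood above the rest for Igfbp2 (0.410 CPM, the next at 0.255), from 23 counts. No member's genotype difference was called as different between the muscles.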

How the results depend on the processing

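Of 689 refits of the members' log2 fold changes, 665 kept their direction and their side of the call rule, and 12 reversed. A median always lies within 1 SD of the mean, so the shift of levels per length to medians was no test of them. The order of the members by level per length was the same with medians as with means in all 4 groups. Members called between genotypes in the TA numbered 0, against 1 (Igf1r) with limma-voom quality weights and 1 (Igf1r) in the fit over 36 libraries. In the soleus they numbered 0, against 2 (Igf1 and Igfbp2) with DESeq2, 1 (Igf1) with limma-voom, 1 (Igfbp2) in the fit over 36 libraries, and 0 to 1 with a library left out. Genes called in the TA numbered 3, against 173 with DESeq2, 150 with limma-voom, 10 without a filter, 692 in the fit over 36 libraries and 3 to 9 with a library left out. In the soleus they numbered 185, against 486, 653 and 312 with DESeq2, limma-voom and the fit over 36 libraries, and 22 (without WT replicate 5) to 602 (without WT replicate 1) with a library left out. The interaction called 325 genes with DESeq2, 9 with limma-voom and a random block of label numbers, and 1 with label numbers as a fixed block.

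Replicate numbers did not pair the libraries. Deviations of same-numbered WT and ∆Ig3-MuSK libraries correlated above 0.1 in 3 of 9 pairs in each muscle. With the replicate number as a block, the TA gave 0 called genes and the soleus 339, no member was called in either, and the adjusted p was 0.0811 for Igf1 and 0.0523 for Igfbp2 in the soleus. Libraries of both muscles with the same label number correlated above 0.1 in 4 of 8 WT and 6 of 8 ∆Ig3-MuSK pairs.

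The log2 fold changes that reversed were near 0. Igf2 in the soleus was 0.049 with limma-voom, 0.0012 in the fit over 36 libraries and -0.043 to 0.041 with a library left out, above 0 without WT replicate 7 or ∆Ig3-MuSK replicate 2 (0.017) or 7 (0.0069). Igfbp4 in the TA was -0.069 to 0.012 with a library left out, above 0 without WT replicate 9. The interaction of Igfbp6 was 0.0033 with RLE factors, 0.00023 without a filter and 0.039 with label numbers as a fixed block, and that of Igfbp3 was -0.12 on library totals. Igf1 between muscles in ∆Ig3-MuSK was 0.00068 on library totals and 0.027 with the fixed block. Library totals also brought Igfbp3 (0.27) and Igfbp7 (0.41) past the rule between muscles in WT. The causes were not tested.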
